A study of Mus musculus with 56 samples.

Results

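Apoe, Clu, Abca1, Hmgcs1, Sqle, Insig1 and Srebf2 are the 7 genes described here, chosen by symbol as a set that spans the making, sensing, packaging and export of cholesterol, out of 43902 genes counted in all 3 tables of the series. All 7 passed the filter on low counts in every comparison. RNA came from barrel cortex, the whisker area of the cerebral cortex, of mice at postnatal day 5, 24 h after the whiskers of the right side were cauterised. In each line 1 cell type carried EGFP-L10a on its ribosomes, an antibody to GFP captured these, and captured (bound) and remaining (unbound) RNA gave 56 libraries in 12 groups. The astrocyte line carried Aldh1l1::eGFPL10a, a transgene driven by an astrocyte gene, and was given no tamoxifen. The knockout microglial line was Cx3cr1CreErt2/CreErt2(Litt) Eef1a1LSL.eGFPL10a/+, in which both copies of Cx3cr1, the gene of the fractalkine receptor, carry a tamoxifen-inducible Cre. The heterozygous microglial line was Cx3cr1CreErt2/+(Litt) Eef1a1LSL.eGFPL10a/+, with 1 such copy, so neither microglial line has wild-type Cx3cr1 on both chromosomes. Both microglial lines received 50 µg of tamoxifen daily from postnatal day 1 to 3, in deprived and control cortices alike, since both hemispheres of a mouse shared every treatment but the side of the whisker lesion. Each fraction had 5 deprived and 5 control libraries in the astrocyte line, 5 and 5 in the knockout line and 4 and 4 in the heterozygous line.

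Cholesterol does not cross the blood-brain barrier, so the brain makes its own, and in the first weeks after birth both neurons and glia do so. When sterol in the endoplasmic reticulum is low, SREBP-2, the transcription factor made from Srebf2, is released and switches on the enzymes of synthesis, and INSIG-1 holds it back when sterol is plentiful. Apolipoprotein E, from Apoe, and clusterin, from Clu, carry lipid in the particles that astrocytes and, to a lesser degree, microglia secrete. The transporter ABCA1, from Abca1, loads cholesterol onto these particles and is a classic target of the LXR nuclear receptors, as is Apoe. Hmgcs1 encodes the cytosolic HMG-CoA synthase that opens the mevalonate pathway, and Sqle encodes squalene epoxidase, which takes the first oxygen-requiring step towards sterols.

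The sequences just ahead of the gene starts are shown because SREBP-2 and LXR are known to act through short elements of this kind. Of the 7 genes, 5 have an entry in the RefSeq promoter table of GRCm38.p6, and Clu and Sqle have none there. Letters run 5′ to 3′ on the gene's strand and stop at or before the base ahead of the GENCODE gene start. The window of Hmgcs1 ends 28 bases short of that base. Capitals mark matches, on either strand, to the sterol response element TCACCCCA, the element CCAAT, the E-box known as CACGTG, and a direct repeat of the DR4 type, which LXR reads. No motif searched overlaps another in these windows.

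Apoe, chr7:19699189-19699438, minus strand: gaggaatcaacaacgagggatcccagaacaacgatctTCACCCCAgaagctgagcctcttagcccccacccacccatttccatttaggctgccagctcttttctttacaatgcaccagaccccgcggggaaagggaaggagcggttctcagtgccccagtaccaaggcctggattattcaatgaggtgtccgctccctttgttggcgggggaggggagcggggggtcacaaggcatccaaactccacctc
Abca1, chr4:53159896-53160145, minus strand: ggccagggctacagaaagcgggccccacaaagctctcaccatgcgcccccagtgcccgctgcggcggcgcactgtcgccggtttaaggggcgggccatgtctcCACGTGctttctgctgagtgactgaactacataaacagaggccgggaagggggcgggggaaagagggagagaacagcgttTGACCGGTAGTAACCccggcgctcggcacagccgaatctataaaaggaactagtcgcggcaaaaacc
Hmgcs1, chr13:119690101-119690350, plus strand: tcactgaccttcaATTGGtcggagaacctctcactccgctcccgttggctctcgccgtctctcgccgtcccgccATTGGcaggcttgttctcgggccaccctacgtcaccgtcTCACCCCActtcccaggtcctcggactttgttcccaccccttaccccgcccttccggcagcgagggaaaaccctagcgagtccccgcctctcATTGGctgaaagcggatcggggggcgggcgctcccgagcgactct
Insig1, chr5:28071162-28071362, plus strand: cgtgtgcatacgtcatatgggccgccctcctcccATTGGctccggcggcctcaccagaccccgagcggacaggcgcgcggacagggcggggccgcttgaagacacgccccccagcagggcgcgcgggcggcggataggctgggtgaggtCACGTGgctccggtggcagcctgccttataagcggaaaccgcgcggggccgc
Srebf2, chr15:82147019-82147180, plus strand: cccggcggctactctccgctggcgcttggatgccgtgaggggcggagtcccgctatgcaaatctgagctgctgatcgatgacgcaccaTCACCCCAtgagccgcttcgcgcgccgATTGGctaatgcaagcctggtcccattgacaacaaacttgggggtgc

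TCACCCCA lay 213 to 206 bases before the RefSeq start of Apoe, 137 to 130 bases before that of Hmgcs1 and 162 to 155 bases before that of Srebf2. It was found in 441 of 32851 mouse promoter windows (1.34%). CCAAT, printed as its reverse complement ATTGG, occurred 3 times before Hmgcs1 and once each before Insig1 and Srebf2, against 33.8% of all windows with at least 1 match. CACGTG stood before Abca1 and Insig1 and in 6.02% of all windows. The direct repeat lay 67 to 53 bases before Abca1, as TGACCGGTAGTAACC, and in 58 of all windows (0.177%). The motifs were chosen with the windows in view, and a match is a description of letters, not of binding.

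Library totals were 10928457 to 28584281 counts in bound and 10081228 to 24306936 in unbound astrocyte libraries, and 32772396 to 56689296 in the microglial lines. The smallest count of a member in a library was 371. Cx3cr1 had 0.336 to 1.25 counts-per-million (CPM, on TMM library sizes) in knockout bound libraries, against 6.52 to 12.4 CPM in heterozygous bound libraries, and 1.53 to 4.17 CPM in astrocyte bound libraries. In the astrocyte line 19 of 20 astrocyte markers were enriched in bound RNA (31.5% of all genes) and 14 of 19 microglia markers tested were depleted (27.6% of all genes). All 20 microglia markers were enriched in both microglial lines (31.6% of all genes in the knockout and 31.8% in the heterozygous line). Their median log2 ratio of bound to unbound RNA was 2.73 in the knockout and 2.81 in the heterozygous line. Bound RNA was still mixed, since 15 neuron markers together held 10861 to 16231 CPM in bound libraries of the 3 lines, and 20 microglia markers together held at most 636 CPM. The knockout libraries are labelled polyA RNA and the others total RNA, so the RNA label cannot be told apart from the line where the knockout line is compared with another. Neither depth nor tamoxifen can be told apart from the line where the astrocyte line is compared with a microglial line.

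Per kilobase of exon, Hmgcs1 had the highest mean and Apoe the next in bound RNA of all 3 lines. In astrocyte bound RNA Hmgcs1 averaged 112 ± 6.27 CPM per kb (SD, n = 10), Apoe 80.6 ± 6.92, Insig1 23.5 ± 2.2, Sqle 22.5 ± 1.63, Clu 21.8 ± 2.07, Srebf2 10.5 ± 0.75 and Abca1 6.65 ± 0.506 CPM per kb. Insig1, Sqle and Clu did not separate beyond their spread. In heterozygous bound RNA (n = 8) Hmgcs1 averaged 169.9 ± 12.9 CPM per kb, Apoe 25.3 ± 5.46, Sqle 21.0 ± 1.2, Insig1 14.1 ± 1.67, Srebf2 7.20 ± 0.699, Clu 4.49 ± 0.662 and Abca1 3.27 ± 0.535 CPM per kb. The knockout line gave the same order of means as the heterozygous line, from 159 ± 15.5 CPM per kb for Hmgcs1 to 3.52 ± 0.60 CPM per kb for Abca1 (n = 10). Apoe (28.0 ± 8.88 CPM per kb in the knockout line) and Sqle (21.8 ± 2.37) did not separate beyond their spread in either microglial line. Clu stood level with Insig1 and Sqle in astrocyte bound RNA and next to last in microglial bound RNA.

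**Figure D1:**
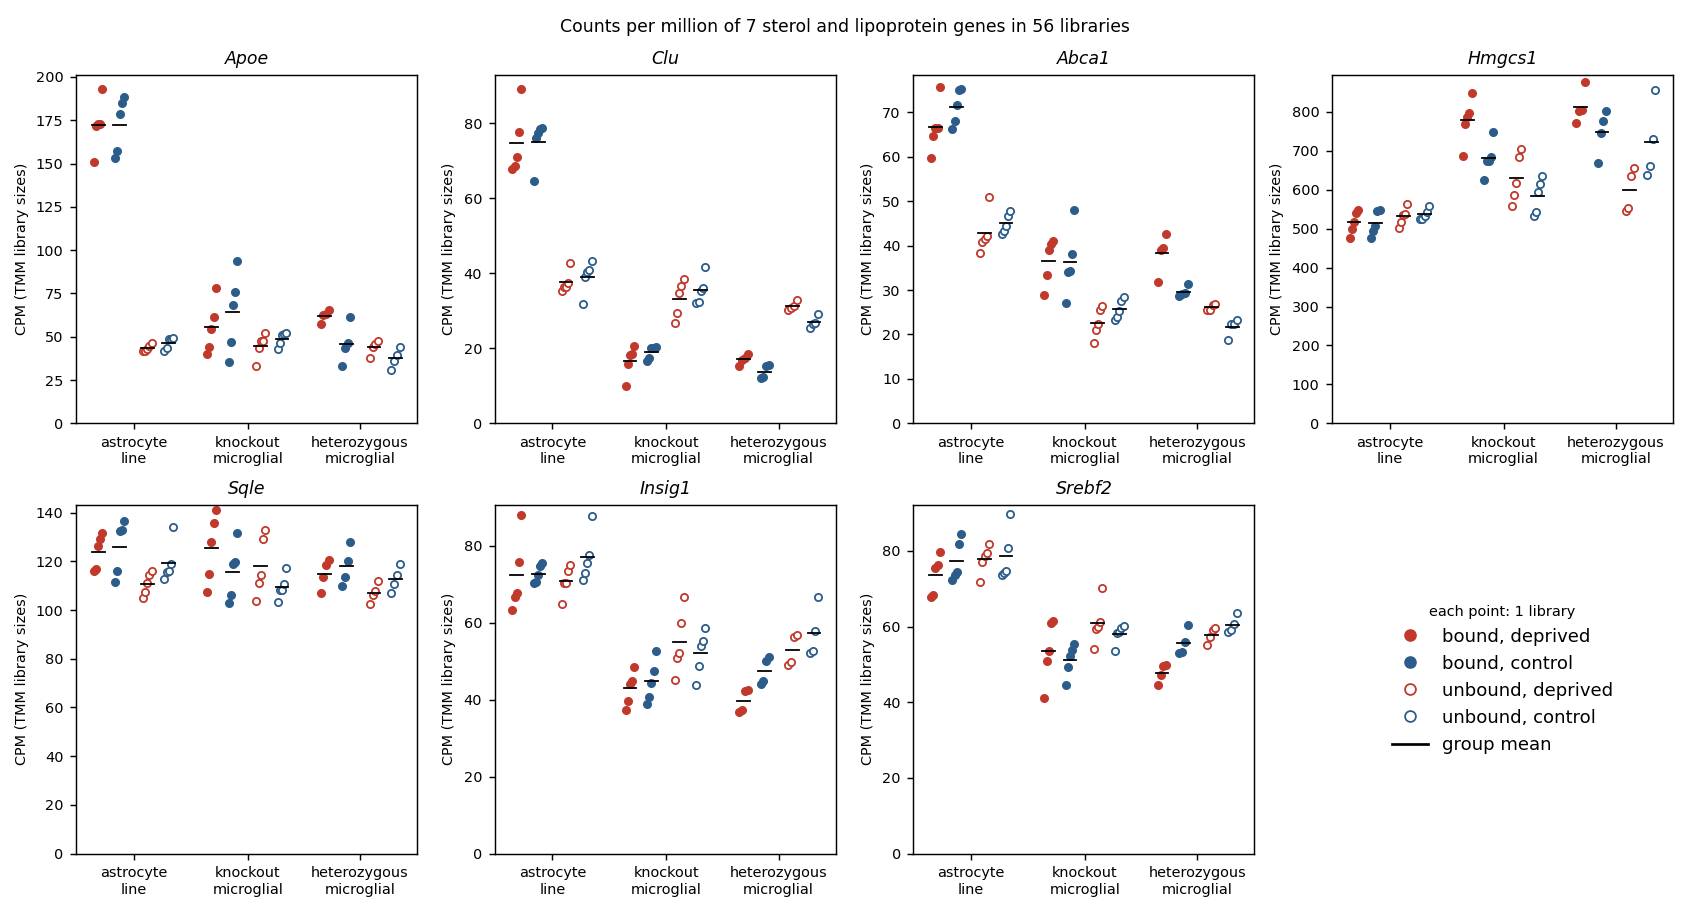
CPM of each of the 7 genes in every library, by line, fraction and treatment, with each point 1 library and deprived left of control. Apoe and Abca1 are highest in astrocyte bound libraries (151 to 193 and 59.8 to 75.6 CPM), and Sqle lies between 102 and 141 CPM in all of them.

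Apoe was the member with the largest ratio of bound to unbound RNA in the astrocyte line. It had 173, 151, 193, 173 and 172 CPM in deprived bound libraries and 185, 153, 188, 157 and 179 CPM in control bound libraries. In the unbound libraries of the same numbers it had 43.0, 41.7, 42.0, 46.6 and 44.8 CPM (deprived) and 48.8, 49.3, 48.6, 43.6 and 41.6 CPM (control). Every bound library lay above every unbound one. The labels name no piece for astrocyte libraries, so a piece there means the bound and unbound library of the same number and treatment. By deviations from group means, 8 of 10 astrocyte bound libraries were most like the unbound library of that piece. The ratio per piece so matched was 3.10 to 4.60. The log2 difference was 1.94 ± 0.05 (SE, edgeR adjusted p = 1e-21). As in any bulk sample, more cells of a type and more RNA per cell cannot be told apart.

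In both microglial lines Apoe was only slightly higher in bound than in unbound RNA. Knockout bound libraries spread from 35.4 to 93.7 CPM with a median of 58.2 CPM, against 33.0 to 52.2 CPM and a median of 47.6 CPM in unbound libraries. There 7 of 10 pieces had a ratio above 1, over a range of 0.689 to 1.79, and the log2 difference was 0.35 ± 0.14 (adjusted p = 0.032). That call was lost in 6 of 20 fits without 1 library, namely bound 18R, 19L, 19R and 22L and unbound 18L and 19R. Mouse 7, whose bound libraries had the lowest summed microglia markers (201 CPM deprived and 164 CPM control), had an Apoe of 44.1 CPM deprived and 35.4 CPM control in them. Deprived bound 18L had less Apoe than deprived bound 7L, at 40.0 CPM. Both pieces of mouse 7 had a ratio below 1 (0.928 in 7L and 0.689 in 7R), so leaving it out had to raise the difference. In that fit, chosen after seeing the data, the log2 difference was 0.49 ± 0.13 (adjusted p = 0.0040). Heterozygous bound libraries ranged from 33.1 to 65.4 CPM with a median of 59.4 CPM, and unbound libraries from 31.0 to 47.6 CPM with a median of 41.8 CPM. The ranges overlap, but the bound value exceeded the unbound value in 8 of 8 pieces, by 1.07 to 1.54 times (log2 difference 0.40 ± 0.09, adjusted p = 0.0011).

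Clu ran in opposite directions in the astrocyte and the microglial lines. In astrocyte bound libraries it had 71.0, 68.7, 89.1, 77.8 and 67.8 CPM (deprived) and 78.5, 76.1, 77.5, 64.5 and 78.7 CPM (control), against 32.0 to 43.2 CPM in unbound libraries. These groups do not overlap, and the log2 difference was 0.97 ± 0.06 (adjusted p = 6.3e-14). In the knockout line Clu had 10.0 to 20.6 CPM in bound libraries and 26.8 to 41.8 CPM in unbound libraries, and bound lay below unbound in 10 of 10 pieces (log2 difference −0.95 ± 0.10, adjusted p = 1.3e-08). In the heterozygous line it had 12.0 to 18.5 CPM in bound and 25.4 to 32.8 CPM in unbound libraries, again with bound below unbound in 8 of 8 pieces (−0.92 ± 0.06, adjusted p = 5.1e-11). Of 20 astrocyte markers, 13 were depleted in heterozygous bound RNA, against 30.8% of all genes, with a median log2 ratio of −0.49. The part of these markers in the values of Clu was not tested.

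Abca1, the exporter, was enriched in bound RNA of all 3 lines, and its bound and unbound libraries overlapped only in the knockout line. Astrocyte libraries had 59.8 to 75.6 CPM in bound and 38.2 to 50.9 CPM in unbound RNA, a log2 difference of 0.65 ± 0.05 (adjusted p = 1.1e-11). Knockout libraries had 27.1 to 48.1 CPM in bound and 18.0 to 28.5 CPM in unbound RNA (0.59 ± 0.09, adjusted p = 4.9e-06), and heterozygous libraries 28.7 to 42.6 CPM and 18.7 to 26.8 CPM in bound and unbound RNA (0.50 ± 0.06, adjusted p = 2.6e-07). The bound value was the higher one in all 10 astrocyte, 10 knockout and 8 heterozygous pieces.

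**Figure D2:**
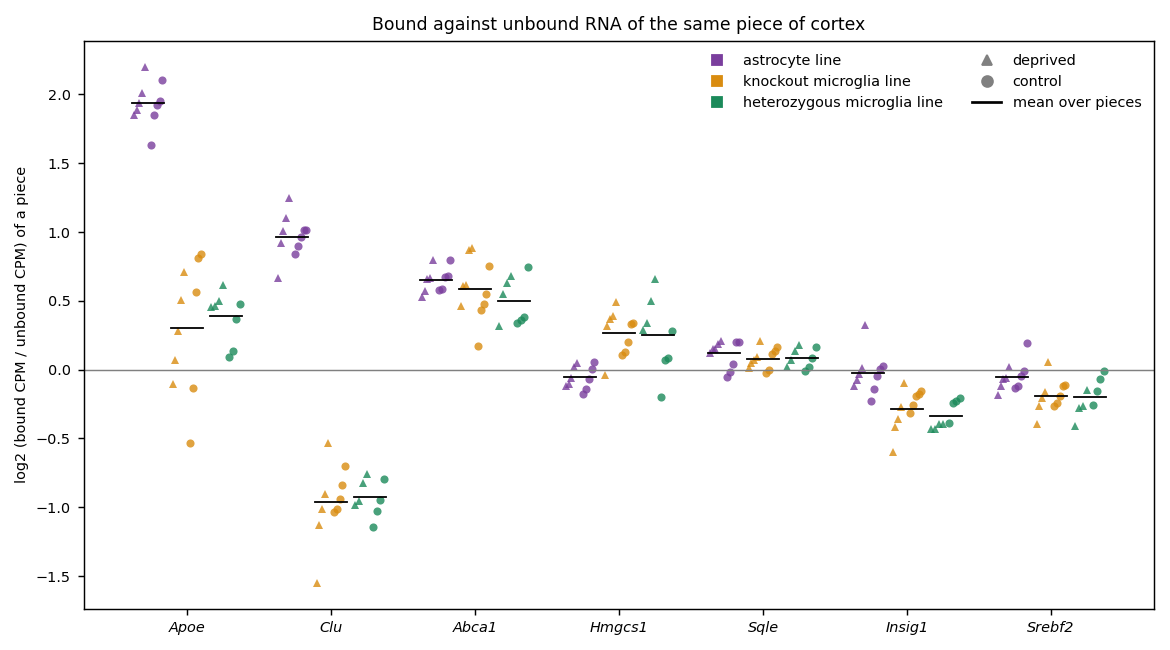
Log2 ratio of bound to unbound CPM per piece of tissue (y axis) for the 7 genes in the 3 lines, with each point 1 piece and deprived left of control. Astrocyte pieces are matched by title number and treatment. Apoe and Clu part between the astrocyte and microglial lines, whereas Abca1 lies above 0 in all of them.

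The genes of synthesis and of its control showed smaller ratios of bound to unbound RNA. Hmgcs1 was level in the astrocyte line, at 476 to 547 CPM in bound and 501 to 564 CPM in unbound libraries (log2 difference −0.05 ± 0.04, adjusted p = 0.25). It was higher in bound RNA of the knockout line, at 625 to 849 CPM against 532 to 705 CPM in unbound RNA (0.26 ± 0.06, adjusted p = 0.00027), and of the heterozygous line, at 668 to 876 CPM against 546 to 857 CPM (0.25 ± 0.06, adjusted p = 0.0020). The groups overlap in both, and 9 of 10 knockout and 7 of 8 heterozygous pieces had a ratio above 1. Hmgcs1 shares 557 exonic bases with the antisense gene Gm48342, and its counts are uncertain to that extent, as no strand is given for the counting. Sqle was nearly flat, with log2 differences of 0.12 ± 0.04 in the astrocyte line (adjusted p = 0.025), 0.08 ± 0.06 in the knockout line (adjusted p = 0.23) and 0.08 ± 0.04 in the heterozygous line (adjusted p = 0.094). The astrocyte call was lost in 5 of 20 fits without 1 library and without the filter on low counts (0.08, adjusted p = 0.30), and with each piece as a block, which pairs the libraries of a piece, the knockout value passed (0.08, adjusted p = 0.045).

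Insig1 and Srebf2, the brake and the transcription factor, were depleted in bound RNA of both microglial lines and level in the astrocyte line. All 10 knockout pieces had a ratio of Insig1 below 1 (log2 difference −0.29 ± 0.07, adjusted p = 0.0018). Insig1 had 36.9 to 51.1 CPM in heterozygous bound libraries and 49.1 to 66.7 CPM in unbound ones, and all 8 pieces had a ratio below 1 as well (−0.34 ± 0.06, adjusted p = 4.5e-05). Srebf2 differed by −0.18 ± 0.06 (adjusted p = 0.017) in the knockout and −0.20 ± 0.04 (adjusted p = 0.00038) in the heterozygous line. In the astrocyte line the differences were −0.03 ± 0.05 (adjusted p = 0.68) for Insig1 and −0.05 ± 0.05 (adjusted p = 0.34) for Srebf2. Tested directly by edgeR, the astrocyte ratio of Srebf2 did not differ from that of either microglial line at the threshold. The differences were 0.15 ± 0.08 from the heterozygous and 0.14 ± 0.07 from the knockout line (adjusted p = 0.14 for each). On levels scaled within each line's own table, astrocyte libraries held the most of both, with 63.3 to 88.1 CPM of Insig1 in bound and 64.8 to 87.8 CPM in unbound libraries.

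Counted over the 7 members, 4 were enriched and 0 depleted in the astrocyte line, where 31.5% of all tested genes were enriched and 27.6% depleted. The knockout line had 3 enriched and 3 depleted (31.6% and 30.4% of all genes), and in the heterozygous line 3 and 3 (31.8% and 30.8%). With 7 genes, nothing more is read from these counts. The ratios themselves were compared between lines in 1 fit over all 12 groups. The astrocyte ratio exceeded the heterozygous one by a log2 value of 1.54 ± 0.16 for Apoe (95% interval 1.22 to 1.86, adjusted p = 2.2e-11), 1.89 ± 0.12 for Clu (adjusted p = 1e-19) and 0.31 ± 0.10 for Insig1 (adjusted p = 0.0069), and fell short of it by −0.30 ± 0.08 for Hmgcs1 (adjusted p = 0.0012). These are 4 of 7 members, against 36.5% of all genes. Against the knockout line the same 4 members passed (37.0% of all genes), with 1.59 ± 0.15 for Apoe, 1.92 ± 0.11 for Clu, 0.26 ± 0.09 for Insig1 and −0.31 ± 0.07 for Hmgcs1. For Abca1 the astrocyte ratio differed from the heterozygous one by 0.15 ± 0.11 (95% interval −0.06 to 0.36, adjusted p = 0.29). No member's ratio differed between the knockout and heterozygous lines at the threshold, where values ran from −0.05 ± 0.16 for Apoe to 0.09 ± 0.11 for Abca1 (0.00409% of all genes called, 1022 genes at an unadjusted p under 0.05).

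The other genes of the pathway were described from lists by function. Of 20 enzymes of sterol synthesis, 8 were enriched and 6 depleted in bound RNA of the astrocyte line (median log2 ratio 0.03). Of all tested genes there, 31.5% were enriched and 27.6% depleted. The knockout line had 2 enriched and 12 depleted (median −0.34), and again 2 and 12 in the heterozygous line (median −0.35, against −0.01 over all genes). The shares of all genes were 31.6% and 30.4% in the knockout and 31.8% and 30.8% in the heterozygous line. Fdft1, squalene synthase, had ratios of −0.56 ± 0.05 in the astrocyte, −1.32 ± 0.06 in the knockout and −1.31 ± 0.05 in the heterozygous line. Idi1, isopentenyl diphosphate isomerase, had −0.88 ± 0.08 in the knockout and −0.88 ± 0.06 in the heterozygous line, and Cyp51, lanosterol demethylase, −0.66 ± 0.06 in the knockout and −0.77 ± 0.06 in the heterozygous line. The difference in ratio between the astrocyte and heterozygous lines was called higher for 12 and lower for 2 of the 20 enzymes (median 0.46, against 0.11 over all genes), where 18.8% of all genes were higher and 17.7% lower. Between the astrocyte and knockout lines it was called higher for 12 and lower for 3, against 18.5% of all genes each way. Hmgcs1 is among those that were lower, which sets it apart in direction from Fdft1 (0.75 ± 0.08, adjusted p = 1e-10), Cyp51 (0.64 ± 0.08), Idi1 (0.73 ± 0.09) and Msmo1, a sterol methyl oxidase (0.73 ± 0.10), in the comparison with the heterozygous line. Fdft1, Idi1 and Cyp51 share exonic bases with other annotated genes, Fdft1 with the lysosomal protease gene Ctsb on the other strand over 774 bases.

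**Figure D3:**
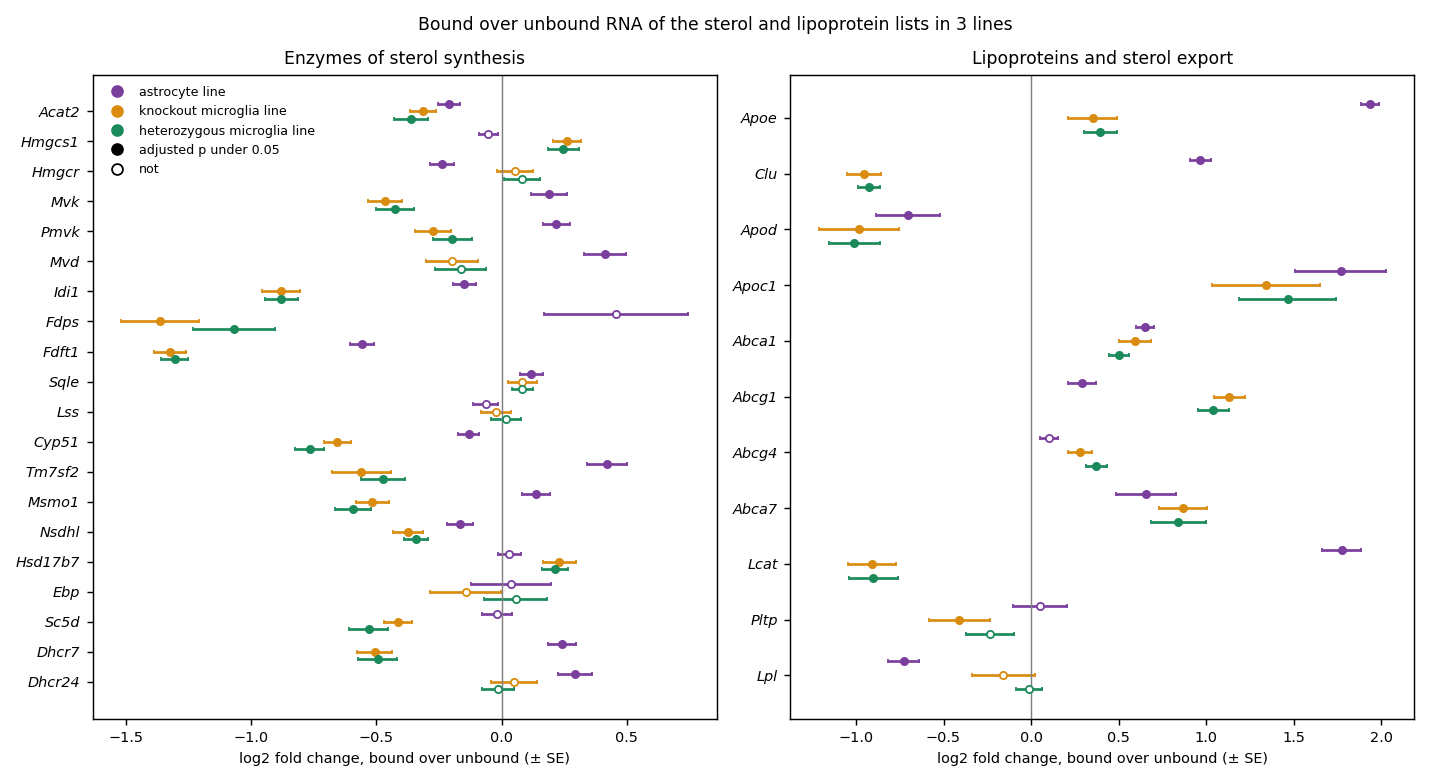
Log2 ratio of bound to unbound RNA with its SE (x axis) for 20 sterol synthesis enzymes and 11 lipoprotein and export genes in the 3 lines. The median enzyme lies near 0 in the astrocyte line, at 0.03, and left of 0 in the knockout and heterozygous lines, at −0.34 and −0.35.

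Among 11 lipoprotein and export genes, 7 were enriched and 2 depleted in astrocyte bound RNA (median 0.65), 6 and 4 in knockout (median 0.28), and 6 and 3 in heterozygous bound RNA (median 0.37). Of all tested genes, 31.5% were enriched and 27.6% depleted in the astrocyte line. The shares were 31.6% and 30.4% in the knockout and 31.8% and 30.8% in the heterozygous line. Lcat, which esterifies cholesterol on lipoproteins, stood at 1.77 ± 0.11 in the astrocyte and −0.91 ± 0.14 in the knockout line. Abcg1, which exports cholesterol to mature particles, had a ratio of 1.13 ± 0.09 in the knockout and 1.04 ± 0.09 in the heterozygous line, and the ratio in the astrocyte line was lower than in the heterozygous line by −0.75 ± 0.12 (adjusted p = 1.9e-06). Apod, a small lipid carrier, was at −1.01 ± 0.15 in the heterozygous line. The 15 regulators had 10 enriched and 2 depleted genes in the astrocyte line, and 8 and 3 in both microglial lines. Srebf1, the relative of Srebf2 that leans towards fatty acid synthesis, was enriched in all 3, at 1.62 ± 0.11 in the astrocyte, 1.32 ± 0.10 in the knockout and 1.50 ± 0.10 in the heterozygous line, unlike Srebf2.

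Among receptors for these particles, 4 of 8 genes were enriched and 1 depleted in the astrocyte line (median 0.12), and 6 and 2 in each microglial line (median 0.85 in both). Shares of all genes enriched and depleted were 31.5% and 27.6% (astrocyte), 31.6% and 30.4% (knockout), and 31.8% and 30.8% (heterozygous). Lrp1, a large endocytic receptor for apolipoprotein E, reached 1.74 ± 0.14 in the astrocyte, 1.78 ± 0.14 in the knockout and 1.85 ± 0.08 in the heterozygous line. Trem2, a microglial receptor that binds lipid and lipoproteins and is also on the list of microglia markers, reached 2.84 ± 0.25 in the knockout and 2.96 ± 0.16 in the heterozygous line. For storage and turnover, 3 genes were enriched and 3 depleted in each line, among 6 tested in the astrocyte line and 7 in the heterozygous line. Lipa, the lysosomal acid lipase, was enriched at 0.57 ± 0.10 in the knockout and 0.59 ± 0.08 in the heterozygous line and depleted at −0.39 ± 0.07 in the astrocyte line. Of 11 genes of fatty acid synthesis, 8 were enriched and 2 depleted in the astrocyte line. The enriched ones were led by the desaturases Fads2 (1.01 ± 0.04), Fads1 (0.76 ± 0.04) and Scd1 (0.98 ± 0.06). The knockout line had 3 enriched and 3 depleted, and the heterozygous line 3 and 4. With the shares of all genes given above, nothing is read from these microglial counts or from those of storage and turnover.

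Whisker loss did not move any of the 7 genes past the threshold in the astrocyte line. In bound RNA 0 of 7 passed (0.0% of 17685 genes, none called by edgeR or limma-voom, 7 by DESeq2, and 1067 at an unadjusted p under 0.05), with log2 differences of deprived from control between −0.11 ± 0.07 for Abca1 and −0.00 ± 0.07 for Hmgcs1. In unbound RNA 0 of 7 passed as well (0.0% of 16846 genes by edgeR, DESeq2 and limma-voom alike, 1043 at an unadjusted p under 0.05), with values from −0.13 ± 0.06 for Insig1 to −0.02 ± 0.04 for Hmgcs1. For Apoe in bound RNA the 95% interval was −0.17 to 0.14, and for Abca1 −0.25 to 0.04. Deprived and control libraries overlapped for all 7 genes in both fractions, as the per-library values above show for Apoe and Clu in bound RNA. None of the 6 pathway lists had a called gene in this line.

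In the heterozygous line the libraries titled deprived came from pieces 14L, 15L, 17L and 17R and those titled control from 14R, 15R, 21L and 21R, so mouse 17 is only in one group and mouse 21 only in the other. The lesion was to the right whiskers, and the cortex on the left receives their input, so the titles of 17R and 21L go against the side letters. Groups follow the titles, and for most genes named the result is given also without these libraries. Marker sums and marker counts are given for all libraries only. Treatment and mouse cannot be told apart for mice 17 and 21. P-values here and in the other lines measure the spread between libraries, of which an animal gave more than 1 where the labels number the animals.

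Abca1 rose in deprived cortex of the heterozygous line in both fractions, and it was the only member called there. Bound libraries had 31.8, 39.1, 42.6 and 39.5 CPM (deprived, 14L, 15L, 17L and 17R) and 29.4, 31.3, 29.1 and 28.7 CPM (control, 14R, 15R, 21L and 21R). Unbound libraries had 25.5, 26.8, 26.6 and 25.5 CPM (deprived) and 23.2, 18.7, 22.3 and 22.3 CPM (control). All deprived values lay above all control values in each fraction, by little in bound RNA, where 14L exceeded 15R by less than 1 CPM. The log2 difference was 0.37 ± 0.09 in bound RNA (adjusted p = 0.018) and 0.31 ± 0.08 in unbound RNA (adjusted p = 0.042). The call is 1 of 7 members in each fraction, against 10.3% of all genes in bound and 3.75% in unbound RNA. Of all genes 5.52% were called higher and 4.76% lower in bound RNA, and 2.7% higher and 1.05% lower in unbound RNA. The bound call ended without 17R and 21L (0.35 ± 0.11, adjusted p = 0.092), with mice 14 and 15 alone (0.23 ± 0.11, adjusted p = 0.27), with the libraries of mice 17 and 21 summed (0.33 ± 0.10, adjusted p = 0.085), with groups formed by side letter (0.15 ± 0.14, adjusted p = 0.92), and when deprived 15L, deprived 17L or control 21R was left out. The unbound call held in 4 of 11 other fits, and in 1 of 8 fits without 1 library.

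**Figure D4:**
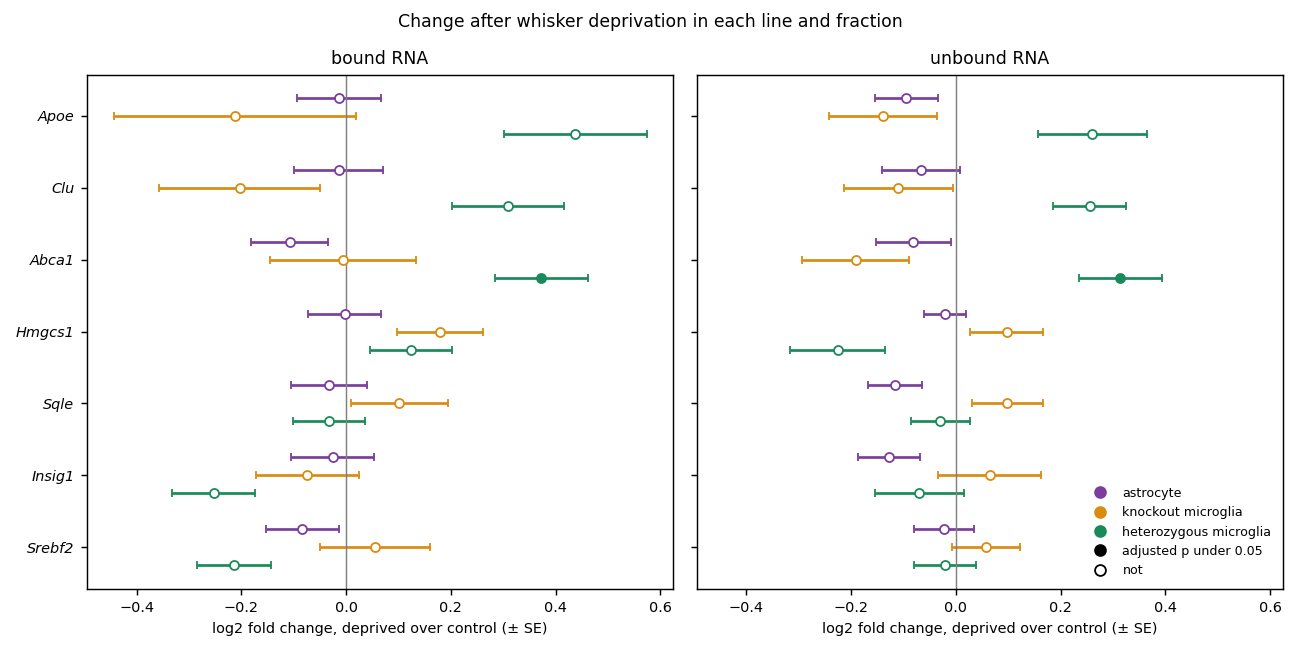
Log2 difference of deprived from control libraries with its SE (x axis) for the 7 genes in bound and unbound RNA of the 3 lines, with filled points for an adjusted p under 0.05. Abca1 in the heterozygous line (0.37 in bound and 0.31 in unbound RNA) is the filled member.

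The carriers Apoe and Clu had values in the same direction in the heterozygous line but did not pass in the main edgeR fit. Apoe had 62.4, 65.4, 63.1 and 57.5 CPM in deprived bound libraries and 61.2, 46.7, 33.1 and 43.4 CPM in control bound libraries. Control 14R lay among the deprived values, and the other 3 control libraries lay below them (log2 difference 0.44 ± 0.14, 95% interval 0.17 to 0.70, adjusted p = 0.057). It passed in 5 of 11 other fits of the same libraries or part of them, among them DESeq2 (adjusted p = 0.017) and the fit with the replicate number as a block (adjusted p = 0.024), and in 1 of 8 fits without 1 library. Without 17R and 21L the bound value of Apoe did not pass (0.35 ± 0.12, adjusted p = 0.11). In unbound RNA Apoe differed by 0.26 ± 0.10 (adjusted p = 0.20). That value passed without the filter on low counts (adjusted p = 0.031) and not without 17R and 21L (adjusted p = 0.21). Clu had 18.5, 17.4, 16.9 and 15.3 CPM (deprived) and 15.2, 12.0, 12.5 and 15.5 CPM (control) in bound libraries, which overlap at 17R and 21R (0.31 ± 0.11, adjusted p = 0.081). Its unbound libraries did not overlap, at 30.3 to 32.8 CPM deprived and 25.4 to 29.3 CPM control (0.26 ± 0.07, adjusted p = 0.059). Clu passed in bound RNA with all 4 groups of the line in the fit (adjusted p = 0.026), and in unbound RNA by DESeq2 (adjusted p = 0.019) and limma-voom (adjusted p = 0.038), among 11 other fits in each fraction. Without 17R and 21L Clu did not pass, at 0.32 ± 0.12 in bound (adjusted p = 0.16) and 0.24 ± 0.08 in unbound RNA (adjusted p = 0.18).

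Insig1 and Srebf2 had lower values in deprived bound RNA of the heterozygous line, also short of the threshold in the main edgeR fit. Insig1 had 36.9, 37.4, 42.2 and 42.7 CPM in deprived and 44.0, 44.9, 50.1 and 51.1 CPM in control bound libraries. Srebf2 had 49.6, 44.5, 47.3 and 49.8 CPM in deprived and 53.1, 55.9, 53.2 and 60.4 CPM in control bound libraries. For both genes every deprived library lay below every control library, yet the edgeR test gave −0.25 ± 0.08 for Insig1 (adjusted p = 0.058) and −0.21 ± 0.07 for Srebf2 (adjusted p = 0.067). Among 11 other fits, Insig1 passed in 3, with the replicate block (−0.25, adjusted p = 0.031), by DESeq2 (adjusted p = 0.025) and with all 4 groups of the line (adjusted p = 0.048). Srebf2 passed in 3 as well, by DESeq2 (adjusted p = 0.030), by limma-voom (adjusted p = 0.039) and with all 4 groups (adjusted p = 0.019). Without 17R and 21L neither passed, at −0.25 ± 0.09 for Insig1 (adjusted p = 0.14) and −0.25 ± 0.09 for Srebf2 (adjusted p = 0.12). Within mouse 14 Insig1 was 36.9 CPM on the left and 44.0 CPM on the right, and within mouse 15 it was 37.4 CPM and 44.9 CPM. In unbound RNA the differences were −0.07 ± 0.08 (adjusted p = 0.74) and −0.02 ± 0.06 (adjusted p = 0.91). Hmgcs1 differed by 0.12 ± 0.08 in bound (adjusted p = 0.34) and −0.23 ± 0.09 in unbound RNA (adjusted p = 0.20), and Sqle by −0.03 ± 0.07 and −0.03 ± 0.06 in bound and unbound RNA. The unbound value of Hmgcs1 passed without the filter on low counts (−0.23, adjusted p = 0.034). It did not pass without 17R and 21L (−0.30 ± 0.11, adjusted p = 0.21).

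Sums of several lists of cell type markers also differed between deprived and control libraries of the heterozygous line. The 20 microglia markers together held 530 to 636 CPM in deprived and 299.8 to 450.3 CPM in control bound libraries, and 10 of them were called higher in deprived bound RNA (median log2 difference 0.51, all 20 above 0). In unbound RNA their sums overlapped, at 61.2 to 72.4 CPM in deprived and 49.2 to 70.9 CPM in control libraries. Astrocyte markers summed to 1449 to 1562 CPM in deprived and 1199.7 to 1351 CPM in control bound libraries, with 7 of 20 called higher (median 0.28), and to 2152 to 2315 CPM and 1726 to 2084 CPM in deprived and control unbound libraries, with 4 of 20 called higher. Markers of thalamus, striatum and hippocampus summed to 2451 to 3285 CPM in deprived and 2285 to 2457 CPM in control bound libraries, with 7 called higher and 1 lower of 13 tested. Endothelial and mural markers summed to 175 to 259 CPM in deprived and 165 to 182 CPM in control bound libraries, with 1 of 12 called higher. Neuron markers summed to 11347 to 13280 CPM in deprived and 12591 to 16231 CPM in control bound libraries, with 1 of 15 called higher and 3 lower. Oligodendrocyte markers summed to 180.1 to 198.594 CPM in deprived and 198.599 to 223.0 CPM in control bound libraries. Of all genes, 5.52% were called higher and 4.76% lower in bound RNA, and 2.7% higher and 1.05% lower in unbound RNA. Nothing is read from the single endothelial or mural marker and the single neuron marker called higher. The part of the markers in the values of Apoe, Clu, Abca1, Insig1 and Srebf2 was not tested.

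**Figure D5:**
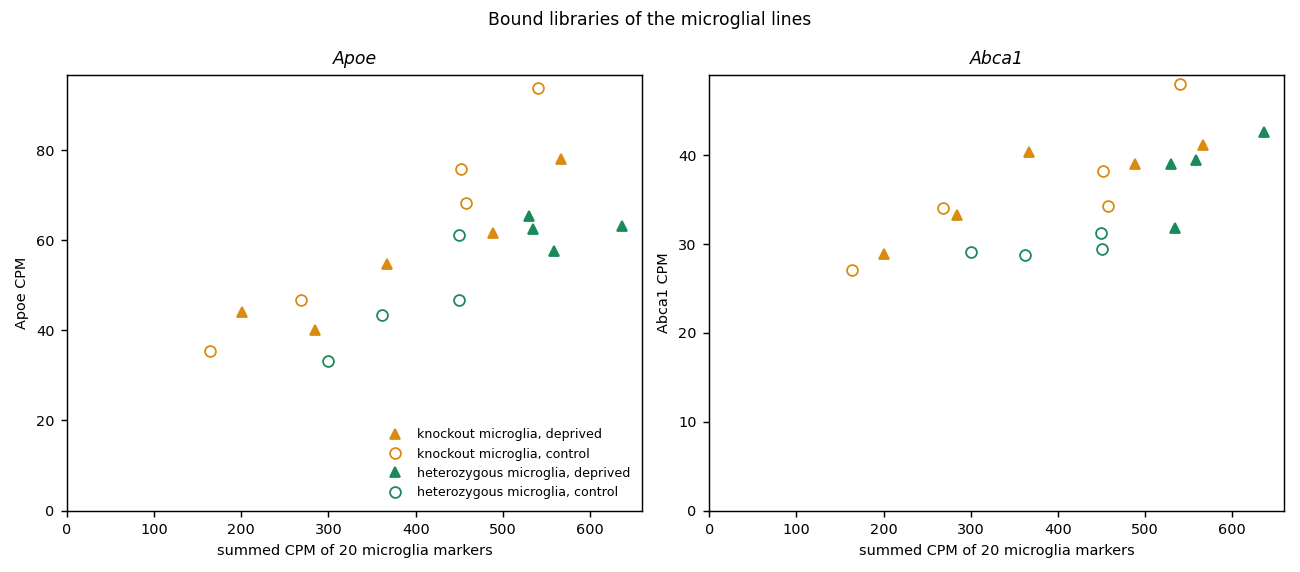
CPM of Apoe and Abca1 (y axes) against the summed CPM of 20 microglia markers (x axis) in the bound libraries of the knockout and heterozygous lines, with each point 1 library. Deprived heterozygous libraries lie to the right of control ones (530 to 636 against 299.8 to 450.3 CPM of markers), and knockout libraries of both treatments spread over 164 to 567 CPM.

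Of 11 lipoprotein and export genes, 3 were called higher after deprivation in heterozygous bound RNA, namely Abca1, Lpl and Apod, against 5.52% of all genes (median 0.37, against 0.01 over all genes). In unbound RNA 2 of 11, Abca1 and Lpl, were called higher, against 2.7% of all genes. Lpl, the lipase that frees fatty acids from lipoproteins, had 118, 151, 105 and 124 CPM in deprived and 73.1, 61.2, 82.4 and 77.8 CPM in control bound libraries. In unbound libraries it had 125, 140.2, 109.7 and 119.6 CPM (deprived) and 75.5, 65.4, 79.7 and 81.5 CPM (control). The groups stand well apart in both fractions, and the log2 differences were 0.76 ± 0.11 (adjusted p = 0.0020) in bound and 0.76 ± 0.08 (adjusted p = 0.00019) in unbound RNA. Both calls held in 8 of 8 fits without 1 library and in 10 of 11 other fits, the exception being groups by side letter (0.45 in bound RNA, adjusted p = 0.91, and 0.44 in unbound RNA, adjusted p = 0.86). Apod had 4.87 to 5.45 CPM in deprived and 2.80 to 3.56 CPM in control bound libraries, which do not overlap (0.64 ± 0.14, adjusted p = 0.011), and lost its call by side letter and with mice 14 and 15 alone.

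Of the remaining lists in the heterozygous line, none of the 20 synthesis enzymes was called in either fraction. In unbound RNA 18 of 20 lay below 0 (median −0.06, against 0.002 over all genes). That count was not tested and is given for all libraries only. In bound RNA 1 of 15 regulators, Rxra, the partner of LXR, was called higher (0.33 ± 0.10, adjusted p = 0.047), and 1 of 8 receptors, Lrp8, a receptor for apolipoprotein E and reelin, was called lower (−0.25 ± 0.07, adjusted p = 0.036). With 5.52% of all genes called higher and 4.76% lower, nothing is read from these counts. The calls of Rxra and Lrp8 were lost without 17R and 21L (adjusted p = 0.10 and 0.15) and held in 2 of 8 fits without 1 library. In unbound RNA 2 of 11 fatty acid genes were called lower, against 1.05% of all genes, Acaca, acetyl-CoA carboxylase (−0.27 ± 0.06, adjusted p = 0.018), and Fasn, fatty acid synthase (−0.33 ± 0.07, adjusted p = 0.022), and both were lost without 17R and 21L (adjusted p = 0.089 and 0.12). Storage and turnover genes had no call.

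In the knockout line 0 of 7 members passed in either fraction, against 0.00546% of all genes in bound and 0.038% in unbound RNA. The fit called 1 gene in bound and 7 genes in unbound RNA, and 2 and 3 genes with the mouse as a block, and 690 and 874 genes had an unadjusted p under 0.05. Apoe had 44.1, 54.7, 40.0, 61.7 and 78.1 CPM in deprived bound libraries (mice 7, 12, 18, 19 and 22) and 35.4, 46.7, 93.7, 75.8 and 68.4 CPM in control bound libraries of the same mice. Within mice the deprived side was higher in 7, 12 and 22 and lower in 18 and 19, and the groups overlap throughout (−0.21 ± 0.23, 95% interval −0.67 to 0.24, adjusted p = 1.0). Abca1 had 28.9, 40.4, 33.3, 39.0 and 41.1 CPM in deprived and 27.1, 34.1, 48.1, 38.2 and 34.3 CPM in control bound libraries (−0.01 ± 0.14, 95% interval −0.28 to 0.27). Clu had a low deprived value of 10.0 CPM in mouse 18, whose deprived bound library was the least like its group (r = 0.985 with the mean of the others over genes), against 15.9 to 20.6 CPM in the other deprived libraries. Hmgcs1 had the largest positive value, 0.18 ± 0.08 in bound RNA (95% interval 0.02 to 0.34, adjusted p = 1.0), with 849, 788, 686, 769.9 and 796 CPM deprived and 673, 673, 625, 748 and 684 CPM control, higher on the deprived side in each of the 5 mice.

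Whether deprivation acted differently in bound and unbound RNA was tested within each line, and 0 of 7 members passed in any line (0.0% of genes in each, with 546, 1904 and 335 genes at an unadjusted p under 0.05 in the astrocyte, heterozygous and knockout lines). In the heterozygous line the fit with each piece as a block called 243 genes, DESeq2 170 and limma-voom 11, with 0 members among them, and in the other lines DESeq2 and limma-voom called 0. The largest member value there was that of Hmgcs1, 0.39 ± 0.13 (95% interval 0.14 to 0.64, adjusted p = 0.27), which was 0.12 in bound and −0.23 in unbound RNA. Whether the knockout line responded unlike the heterozygous line was tested in each fraction, and 0 of 7 members passed (0.51% of genes in bound and 1.79% in unbound RNA). For Abca1 the deprivation effect in unbound RNA was −0.19 ± 0.10 in the knockout and 0.31 ± 0.08 in the heterozygous line. The difference was −0.50 ± 0.14 (95% interval −0.77 to −0.23, adjusted p = 0.065). It passed without the filter on low counts (adjusted p = 0.022) and with DESeq2 (adjusted p = 0.024). Without 17R and 21L it did not pass (−0.53 ± 0.16, adjusted p = 0.13). In bound RNA the differences between genotypes were −0.65 ± 0.32 for Apoe (95% interval −1.28 to −0.03, adjusted p = 0.30), −0.52 ± 0.21 for Clu (adjusted p = 0.21) and −0.38 ± 0.18 for Abca1 (adjusted p = 0.29). Of the lists, 1 gene passed, Acaca in unbound RNA (0.40 ± 0.10, adjusted p = 0.046), and not without 17R and 21L (0.39 ± 0.12, adjusted p = 0.12).

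Over the 56 libraries, with the mean of each of the 12 groups removed, Sqle and Srebf2 had r = 0.71 and Apoe and Abca1 r = 0.63 in log2 CPM, where bound and unbound libraries of 1 piece share their tissue. These values varied between lines and fractions. For Sqle and Srebf2, bound and unbound RNA gave 0.46 and 0.81 (astrocyte), 0.91 and 0.78 (knockout), and 0.07 and 0.16 (heterozygous). For Apoe and Abca1 they gave 0.89 and −0.18 (astrocyte), 0.88 and 0.54 (knockout), and 0.06 and 0.34 (heterozygous). Among 9468 genes over all 56 libraries, those most like Apoe were Ctsb (r = 0.85), Serinc3 (0.82) and Csf1r (0.79), the last a microglia marker, and those most like Abca1 were Serinc3 (0.78), Itm2b (0.75) and Selenop (0.75). Clu was nearest to Mfge8 (0.74), Rpn2 (0.72) and Mmd2 (0.71). Hmgcs1 was nearest to Acly, ATP citrate lyase, which makes cytosolic acetyl-CoA (0.80), and to Acat2, which makes acetoacetyl-CoA (0.74). Sqle was nearest to Sel1l3 (0.77), Lmtk2 (0.77) and Syt1 (0.76), Srebf2 to Nrxn2 (0.82), Lingo1 (0.81) and Adgrl1 (0.80), and Insig1 to Tent4a (0.74), Atf2 (0.73) and Cdc42bpa (0.73). With the mean of each line removed instead, which leaves the difference between bound and unbound RNA in, Apoe was nearest to Dock1 (0.94), Clu to the astrocyte glutamate transporter Slc1a3 (0.95), Abca1 to Sft2d2 (0.92), Hmgcs1 again to Acly (0.90), Sqle to Grid1 (0.71), Insig1 to Idi1 (0.73) and Srebf2 to Sez6 (0.78).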

How the data were processed

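The deposited tables hold whole-number read counts per Ensembl gene, 1 table for each of 3 lines. Per the submitters' processing notes, which give no roles, the authors worked with GRCm38 (mm10) and with featureCounts 2.0.0, cutadapt 2.9, HISAT2 2.2.0, Trim Galore 0.6.4 and FastQC 0.11.9. The settings and the strand used in counting are not given in the sources used here, so reads of genes that overlap on opposite strands cannot be told apart. The labels name the NuGEN Ovation V2 kit, with no molecular identifiers stated. Symbols, positions and exon lengths came from GENCODE vM21.

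The test of counts was the two-sided quasi-likelihood F test of edgeR 4.0.16 (R 4.3.3), after TMM scaling and filterByExpr on the groups in the fit. P-values were adjusted by Benjamini-Hochberg over all genes tested, with a threshold of 0.05. Deprivation was fitted per line and fraction. Bound against unbound RNA was fitted over the 4 groups of a line, genotype differences over the bound or unbound groups of both microglial lines, and differences in the ratio between lines over all 12 groups. CPM used TMM library sizes within a line, and log2 CPM a prior count of 2. Errors of log2 differences are SE from the edgeR fit, with 95% intervals. Totals were 10081228 to 56689296 counts, and no member had fewer than 371 counts in a library. DESeq2 1.42.0 and limma 3.58.1 served as alternatives. The test was checked on simulated counts.

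The 7 members, the 12 gene lists and the rules were chosen with earlier results of these data known. Of the lists, up to 4 genes with the smallest p among those that passed could be named for each comparison, and the text names a part of these, Apod in the heterozygous enrichment included. The 3 genes most like each member were taken among genes with a mean log2 CPM of at least 3, leaving out predicted genes. Some genes that these rules name are not reported here. Named genes that share exonic bases with another annotated gene, and are uncertain to that extent, are Hmgcs1, Fdft1, Idi1, Cyp51, Srebf1, Ctsb, Serinc3, Csf1r, Selenop, Rpn2, Nrxn2, Adgrl1, Tent4a, Atf2, Cdc42bpa and Grid1.

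Libraries were grouped by title. In the knockout line the number is that of the mouse, and the deviations of its deprived and control libraries from their group means correlated by 0.10 to 0.53 in bound RNA and by −0.05 to 0.56 in unbound RNA. The fit with the mouse as a block is an alternative, given beside a count only where it changed it.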

Additional observations from a re-analysis of the deposited data

Results flagged for a closer look

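Within groups, 1 library or piece stood far from the others in 3 of 126 sets of values tested, where chance flags about 1 in 20. Clu had 64.5 CPM in astrocyte bound control library 4, against 76.1 to 78.7 CPM in the other 4. The ratio of bound to unbound Abca1 was 1.67 in heterozygous control piece 15R, whose unbound library had 18.7 CPM, against 1.27 to 1.30 in the other 3 control pieces. The ratio of bound to unbound Insig1 was 1.25 in astrocyte deprived piece 5, against 0.922 to 1.01 in the other 4.

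The bound over unbound ratio of 4 members differed between the astrocyte line and a microglial line, by the test of the difference itself (edgeR, adjusted p of 0.016 or less). On the log2 scale the astrocyte ratio minus the heterozygous ratio was 1.54 for Apoe, 1.89 for Clu, 0.31 for Insig1 and −0.30 for Hmgcs1. The astrocyte ratio minus the knockout ratio was 1.59 for Apoe, 1.92 for Clu, 0.26 for Insig1 and −0.31 for Hmgcs1. Every astrocyte piece had a ratio of Clu above 1 and every microglial piece one below 1.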

How the results depend on the processing

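Results were recomputed without each library of their fit in turn and under those of 12 settings that apply to them, several of which exist for 1 line only. The differences in ratio between lines were not refitted without 1 library. Of 2177 values of members, 2047 kept their direction and their side of the threshold. A sign turned in 69, all of members not called, and with an adjusted p above 0.05 each time. Of the enrichment calls of members, the 12 settings ended that of Sqle in the astrocyte line without the filter (0.08), and added Sqle in the heterozygous line by limma-voom (0.10) and in the knockout line with the replicate block (0.08). Leaving out 1 library ended that of Sqle in the astrocyte line in 5 of 20 fits and that of Apoe in the knockout line in 6 of 20. The cause of the changes below was not tested. The median of all genes moved by over 0.1 only without the filter, by 0.36 for the astrocyte enrichment, 0.30 for its difference from the heterozygous and 0.25 from the knockout line. Titles and side letters of 17R and 21L cannot be settled from the data used here, and this limits every deprivation result of the heterozygous line and every genotype difference.

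For members called in the heterozygous line after deprivation, where the count was 1 in each fraction, the counts in bound and unbound RNA were 2 and 3 without the filter, 4 and 2 by DESeq2, 3 and 2 by limma-voom, 3 and 0 with the replicate block, 5 and 0 with all 4 groups of the line, and 0 and 0 by side letter, without 17R and 21L, with mice 14 and 15 alone, and with mice 17 and 21 summed. With DESeq2 size factors it was 0 in unbound RNA. Without 1 library it ran from 0 to 3 in bound and 0 to 2 in unbound RNA. In the genotype difference in unbound RNA it was 1 without the filter and by DESeq2, against 0, and 0 to 1 without 1 library.

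Counts over all genes that moved by over 1.5 times were as follows. For deprivation in the heterozygous line (1850 bound, 678 unbound) they were 0 and 0 by side letter, 741 and 294 without 17R and 21L, and 951 in bound RNA with mice 17 and 21 summed, and in unbound RNA 1459 without the filter and 1176 by DESeq2. Without 1 library they ran from 938 to 2089 in bound RNA, with 938 without deprived 15L and 1068 without control 21R. In unbound RNA they ran from 247 to 1141, with 247 without deprived 15L, 383 without deprived 14L, 396 without deprived 17R, 402 without control 15R and 1141 without control 14R. For the astrocyte line (0) they were 85 and 143 without the filter in bound and unbound RNA, and 7 by DESeq2 in bound RNA. For the knockout line (1 bound, 7 unbound) they were 28 and 52 without the filter, 11 and 35 by DESeq2, 2 and 3 with the mouse as a block, and 0 and 0 without mouse 7. In unbound RNA alone they were 1 by limma-voom, 1 with all 4 groups and 2 with sex as a term. Without 1 library they ran from 0 to 2 in bound and 0 to 22 in unbound RNA. For the difference between fractions (0) they were 15, 118 and 1 without the filter in the astrocyte, heterozygous and knockout lines, 170 by DESeq2, 11 by limma-voom and 243 with the replicate block in the heterozygous line, where they ran from 0 to 60 without 1 library, and 1 with the replicate block in the astrocyte line. For the genotype difference (100 bound, 345 unbound) they were 576 and 872 without the filter, 734 and 841 by DESeq2, 5 and 66 without 17R and 21L, and 160 by limma-voom in bound RNA, and they ran from 0 to 441 and from 69 to 732 without 1 library. For the ratio of the knockout against the heterozygous line (1) they were 2 by DESeq2 and 0 with DESeq2 size factors and by limma-voom. The fit without 17R and 21L for genotype differences, fraction differences and enrichment, and that without mouse 7, were chosen after seeing the data.

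The values that turned sign were small. Abca1 in knockout bound RNA after deprivation (−0.0057) was 0.0060 with DESeq2 size factors, 0.0058 by DESeq2, 0.0022 without the filter, 0.0071 with the replicate block, 0.0084 with all 4 groups and 0.097 by limma-voom. Hmgcs1 in astrocyte bound RNA (−0.0030) was 0.0032 without the filter and 0.0080 with all 4 groups. In the heterozygous line Sqle in bound RNA (−0.03) was 0.011 by side letter and 0.025 with mice 14 and 15 alone, and Srebf2 in unbound RNA (−0.02) was 0.062 by side letter, 0.024 without 17R and 21L, 0.058 with mice 14 and 15 alone and 0.0076 with mice 17 and 21 summed. For the difference between fractions, Abca1 in the astrocyte line was 0.0033 by limma-voom. In the knockout line Apoe was 0.021 by limma-voom, Sqle −0.016 without the filter, and Srebf2 0.0060 with DESeq2 size factors, 0.0059 by DESeq2 and 0.029 by limma-voom.

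Without 1 library, further signs turned. In astrocyte bound RNA Apoe ran from −0.063 to 0.031, Clu from −0.088 to 0.019, Hmgcs1 from −0.030 to 0.027 and Insig1 from −0.099 to 0.019, and in unbound RNA Srebf2 from −0.043 to 0.026. In the heterozygous line Sqle in bound RNA ran from −0.066 to 0.0065 and Insig1 in unbound RNA from −0.12 to 0.0083. In the knockout line Abca1 in bound RNA ran from −0.095 to 0.12 and Insig1 in unbound RNA from −0.0095 to 0.13. For the difference between fractions, the astrocyte line gave −0.029 to 0.12 for Clu, −0.087 to 0.048 for Abca1 and −0.012 to 0.049 for Hmgcs1, and the knockout line −0.22 to 0.10 for Apoe, −0.18 to 0.061 for Clu, −0.041 to 0.072 for Sqle and −0.055 to 0.098 for Srebf2.

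For deprivation, the replicate block pairs animals in the knockout line and mice 14 and 15 in the heterozygous line, and elsewhere only numbers. For the enrichment and the difference between fractions, it pairs the bound and unbound libraries of a piece, matched by number in the astrocyte line. In the astrocyte line 1 of 5 same-numbered pairs correlated above 0.1 in bound and 4 of 5 in unbound RNA. In the knockout line the block changed the call of Sqle in the enrichment, where it was by piece (adjusted p = 0.045), and of no other member. No paired analysis was possible for the genotype differences and the differences in ratio between lines because different lines share no animal.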
